A study of Mus musculus with 7 samples.

Results

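The genes that make, break down, carry and sense prostaglandin E2 were followed in sorted tumour cells of the mouse colon that lacked or kept Mex3a. The set was fixed as 10 genes, and its members were found as all probe sets that the platform annotation pairs with exactly 1 gene symbol equal to one of them. That gave 18 probe sets for 9 of the 10 genes, of 17097 genes with such a probe set in all. Ptgs1, the constitutive cyclooxygenase, had no probe set paired with its symbol and was not analysed here. Levels are log2 values from robust multi-array average (RMA), in which 1 unit is a doubling.

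The data were 7 Affymetrix arrays, 3 KO and 4 WT. KO animals carried Mex3a tom/flox and WT animals Tom/+, so both genotypes held 1 Tomato reporter allele of Mex3a, and both carried Villin CreERT2, a tamoxifen-inducible Cre driven in the gut epithelium, and APC fl/+. All received 4 injections of tamoxifen and then 2% dextran sulfate sodium (DSS, a polymer that injures the colon lining) over 5 days. Colon adenomas were resected 2 months later. Epcam-positive, Tomato-positive cells were sorted, so every array describes cells in which the Mex3a promoter was active, and RNA of 2000 cells was amplified over 24 cycles. The labels give neither the animals' ages nor whether each array is a separate animal. The p-values therefore measure only how far these samples spread, and that spread may be technical. In bulk samples, fewer cells of a type and less RNA per cell cannot be told apart.

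Prostaglandin E2 is made from arachidonic acid, which a cyclooxygenase turns into prostaglandin H2 and a terminal synthase then turns into prostaglandin E2. The carrier Slco2a1 takes the lipid back into cells, where Hpgd inactivates it, and the receptors Ptger2 and Ptger4 raise cyclic AMP while Ptger3 mostly lowers it. In the intestine the pathway is known for its part in repair after injury and in adenoma growth, where the inducible cyclooxygenase is often raised and Hpgd is often lost. Much of the cyclooxygenase of adenomas lies in stromal and myeloid cells, which the Epcam sort is meant to leave out.

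Mex3a itself, the check of the labels, averaged 6.18 (SD 0.11, 3 arrays) in KO and 7.33 (SD 0.22, 4 arrays) in WT, a log2 difference of -1.13 (SE 0.13, limma, adjusted p = 0.142). Epcam lay between 11.88 and 11.99 in KO and between 11.87 and 11.99 in WT. The pan-leukocyte gene Ptprc lay between 4.07 and 4.25 in KO and between 4.02 and 4.11 in WT, below the level filter of 5.28 that removed the lowest 25% of genes. Of the markers of other cell types with a probe set, 13 of 20 for leukocytes and 8 of 13 for fibroblasts passed that filter. It kept 12822 of all 17097 genes, so passing it does not by itself show that a cell type was present. Among the fibroblast markers Col3a1, a collagen named after its values were seen, read 5.84, 8.37 and 6.31 in KO. In WT it read 5.56, 6.21, 8.26 and 5.48. RMA gives every probe set a value and the table holds no detection call, so no marker is at 0 and a low level cannot be told from none. Y-linked signal was present on 1 KO array (KO replicate 3) and 1 WT array (WT replicate 2). Scan batch 1, as the labels name it, held 1 KO and 2 WT arrays and scan batch 2 held 2 of each.

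None of the 18 probe sets differed between the genotypes past the threshold. In a limma fit over all 45037 non-control probe sets, with scan batch as a covariate and Benjamini-Hochberg adjustment, 0 of the 18 passed an adjusted p of 0.05, where 0 of all probe sets (0%) did. At an unadjusted p under 0.05 there were 2 of 18, against 9.39% of all probe sets. The differences were positive for 10 probe sets and negative for 8, and for 12 they were smaller than 0.10 on the log2 scale. The differences with the lowest p belonged to Ptgs2 and Ptger4, and both were higher in KO. The plots of levels by array and of differences by probe set show all 18.

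**Figure D1:**
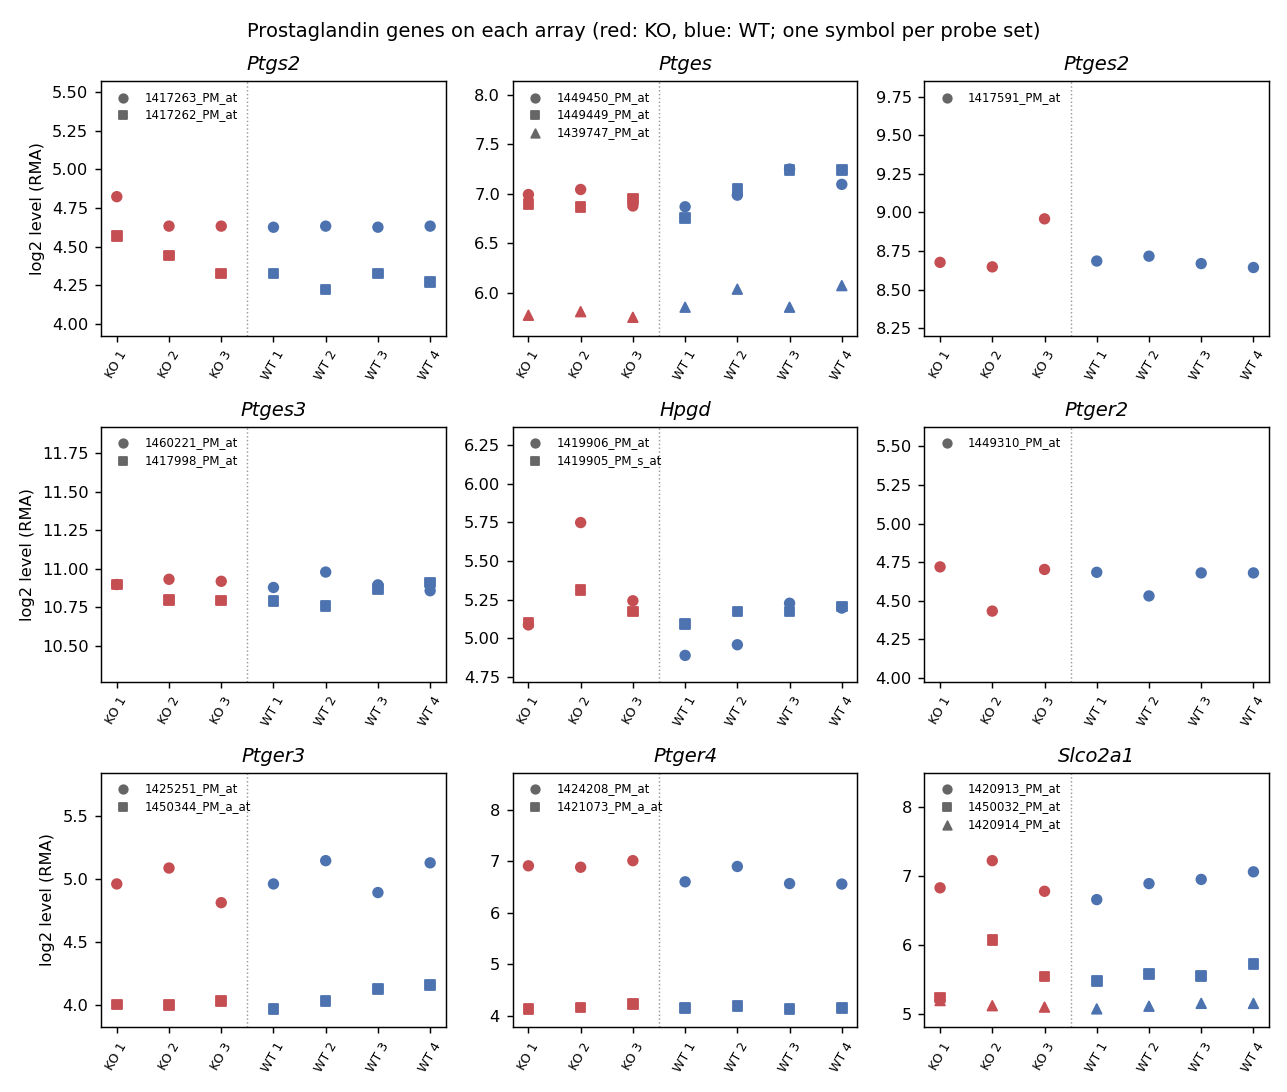
Log2 RMA levels (y axis) of the 18 probe sets of 9 prostaglandin genes on each array (x axis), KO arrays in red and WT arrays in blue, 1 symbol shape per probe set. The 3 KO arrays of the brighter Ptger4 probe set sit between 6.89 and 7.01 with WT replicate 2 among them at 6.90, and the Ptgs2 probe sets stay under 5 on every array.

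**Figure D2:**
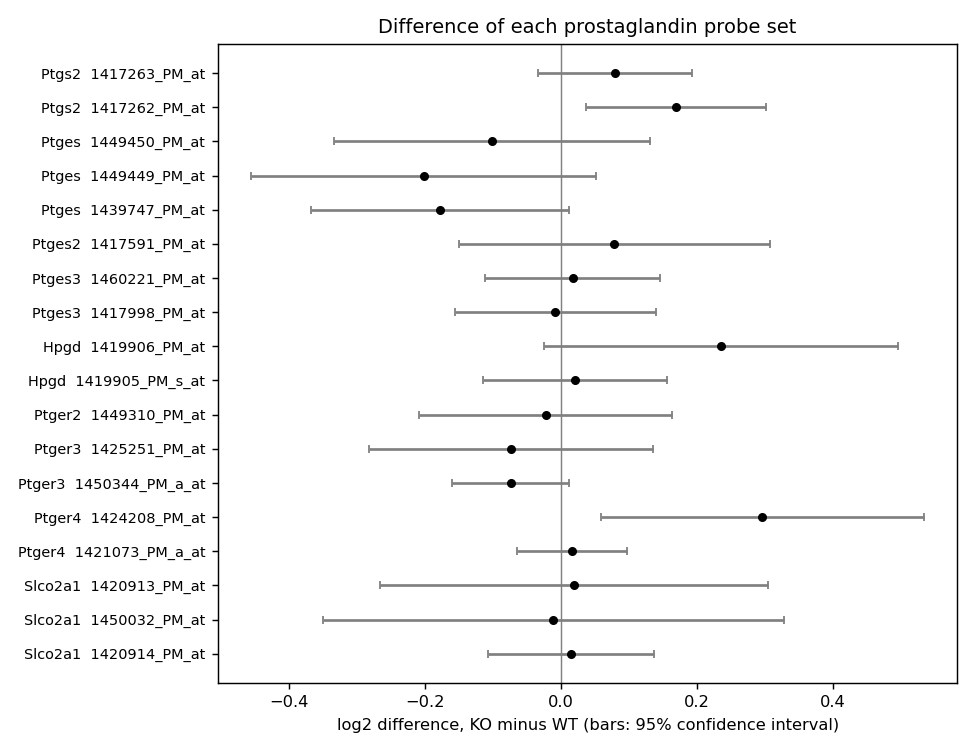
Log2 difference of each probe set, KO minus WT (x axis), with its 95% confidence interval from the limma fit over all probe sets. The intervals of 2 probe sets, 1417262_PM_at of Ptgs2 and 1424208_PM_at of Ptger4, do not reach 0, and neither passed after adjustment.

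Ptgs2, the inducible cyclooxygenase that starts prostaglandin synthesis after injury and growth signals, was at a low level in both genotypes. Its promoter is shown because it is the gene of the set best known to answer cyclic AMP, the messenger that Ptger4 raises, and that of Ptger4 because this receptor had the largest difference of the set. Both are from RefSeq in build GRCm38.p6 and run from 250 bases before to 50 bases after the annotated start. The Ptgs2 window is chr1:150099781-150100080 on the plus strand and the Ptger4 window chr15:5244138-5244437 on the minus strand. Capitals mark matches to the motifs searched.
Ptgs2 promoter: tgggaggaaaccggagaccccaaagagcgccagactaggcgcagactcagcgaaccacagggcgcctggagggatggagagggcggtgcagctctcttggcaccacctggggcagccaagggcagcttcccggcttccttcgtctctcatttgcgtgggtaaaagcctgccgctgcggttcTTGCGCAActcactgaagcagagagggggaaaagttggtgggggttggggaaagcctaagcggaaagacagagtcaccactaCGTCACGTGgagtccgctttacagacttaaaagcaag
Ptger4 promoter: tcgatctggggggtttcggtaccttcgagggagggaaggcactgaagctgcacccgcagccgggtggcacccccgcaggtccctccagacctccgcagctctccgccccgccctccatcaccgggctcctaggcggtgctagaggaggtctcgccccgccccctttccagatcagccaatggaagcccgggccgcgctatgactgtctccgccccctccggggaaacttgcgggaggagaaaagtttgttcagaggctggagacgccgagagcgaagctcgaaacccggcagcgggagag

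The motifs searched, on both strands, were the cyclic AMP response half-site TGACG, the E-box CACGTG, the C/EBP-type palindrome TTGCGCAA, the TATA box TATAAA and the TCF-type motif CTTTGAT. All 10 genes had a promoter in the RefSeq table. The Ptgs2 window held the half-site on its reverse strand from position 14 after the start, overlapping by 2 bases an E-box from position 17, and the palindrome from position -69. The half-site occurs in 20.8% of all 32851 promoter windows, the E-box in 7.15% and the palindrome in 0.183%. The Ptger4 window held none of the 5 motifs. Of the other members, Ptges3 held the half-site, Ptges2 the E-box, and Hpgd and Slco2a1 the TATA box, which occurs in 13.6% of windows. The TCF-type motif, found in 3.73% of windows, was in 0 of the 10. These are matches of letters, and no binding was measured.

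On its brighter probe set, 1417263_PM_at, Ptgs2 read 4.82, 4.63 and 4.63 in KO replicates 1 to 3 and 4.63 in each of the 4 WT arrays. KO replicate 1 was the 1 array that stood off this level, and 4 arrays (KO replicates 2 and 3, WT replicates 2 and 4) shared exactly the same value. The difference was 0.08 (SE 0.05), and it was 0.0034 without KO replicate 1.

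On 1417262_PM_at, Ptgs2 read 4.57, 4.44 and 4.33 in KO and 4.33, 4.22, 4.33 and 4.27 in WT. KO replicates 1 and 2 lay above every WT array, while KO replicate 3 carried exactly the value of WT replicates 1 and 3. The difference was 0.17 (SE 0.06, 95% confidence interval 0.036 to 0.30), with an unadjusted p of 0.019 and an adjusted p of 0.50 (limma). The mean of Ptgs2 was below the level filter, so it had no place among the 12822 genes of the gene-level fit, in which each gene is represented by its brightest probe set.

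The terminal synthases followed no common direction. Ptges, the inducible membrane-bound synthase that couples to Ptgs2, had a negative difference on all 3 of its probe sets, and none passed the threshold. On 1449450_PM_at it read 6.99, 7.04 and 6.88 in KO and 6.87, 6.99, 7.25 and 7.10 in WT, and on 1449449_PM_at 6.90, 6.87 and 6.95 in KO and 6.76, 7.05, 7.24 and 7.24 in WT. On both, WT replicates 3 and 4, the WT arrays of scan batch 2, were the highest and WT replicate 1 the lowest of all arrays, so the groups overlapped.

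The dimmest probe set of Ptges, 1439747_PM_at, was the 1 probe set of the 18 on which the genotypes did not overlap, against 2.80% of all probe sets lower in KO in this way; 0 of the 18 lay higher in KO without overlap, against 2.16% of all probe sets. It read 5.77, 5.81 and 5.75 in KO and 5.86, 6.04, 5.86 and 6.07 in WT, a difference of -0.18 (SE 0.08, limma, adjusted p = 0.548). The two-sided exact permutation p over the 35 splits of the arrays was 0.0857, and 0.111 over the 18 arrangements within scan batch, where the smallest values possible are 0.0286 and 0.0556. For 1449450_PM_at the difference was -0.10 (SE 0.10), and for 1449449_PM_at -0.20 (SE 0.11). Within scan batch 1 the difference of 1449450_PM_at was 0.065 and within scan batch 2 it was -0.21, and those of 1449449_PM_at were -0.0054 and -0.33 in the same order of batches. For 1439747_PM_at they were -0.17 and -0.18.

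Ptges2, a second membrane-associated synthase that is expressed constitutively, read 8.68, 8.65 and 8.96 in KO and 8.69, 8.72, 8.67 and 8.64 in WT. KO replicate 3 stood above the other arrays, which lay close together in both groups. The difference was 0.08 (SE 0.10, limma, adjusted p = 0.807), and -0.016 without KO replicate 3 in the gene-level fit.

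Ptges3, the cytosolic synthase that is also the Hsp90 co-chaperone p23, had the narrowest intervals of the synthases. On 1460221_PM_at it read 10.90, 10.93 and 10.92 in KO and 10.88, 10.98, 10.90 and 10.86 in WT. The difference was 0.02, with a 95% confidence interval from -0.11 to 0.15, and the other probe set gave -0.01 with an interval from -0.16 to 0.14. Differences of more than 0.16 in either direction lay outside both intervals.

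Hpgd, the dehydrogenase that inactivates prostaglandin E2, and Slco2a1, the carrier that brings it into the cell, stood highest in KO replicate 2 on both probe sets of Hpgd and on the brighter 2 of the 3 of Slco2a1. On 1419906_PM_at Hpgd read 5.09, 5.75 and 5.24 in KO and 4.89, 4.96, 5.23 and 5.20 in WT. KO replicate 2 stood well above every other array, KO replicate 3 was just above the highest WT array, and KO replicate 1 lay inside the WT range. The difference was 0.24 (SE 0.11, limma, adjusted p = 0.559), and 0.097 without KO replicate 2. The second probe set of Hpgd, 1419905_PM_s_at, whose suffix marks probes shared between transcripts, gave 0.02 (SE 0.06) and was also highest in KO replicate 2, at 5.31. The mean of Hpgd was below the level filter on both.

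Slco2a1 on its brightest probe set, 1420913_PM_at, read 6.83, 7.22 and 6.78 in KO and 6.66, 6.89, 6.95 and 7.06 in WT. On 1450032_PM_at it read 5.25, 6.07 and 5.55 in KO and 5.48, 5.58, 5.56 and 5.73 in WT. The groups overlapped on both, with KO replicate 2 at the top, and on 1450032_PM_at KO replicate 1 was at the bottom. The differences were 0.02 (SE 0.12) and -0.01 (SE 0.15), and the third probe set, 1420914_PM_at, gave 0.01 (SE 0.05). That dimmest probe set was highest in KO replicate 1, at 5.20, with KO replicate 2 at 5.13 and WT between 5.08 and 5.16.

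Markers of the absorptive colonocyte, a cell type of the same epithelium, had their highest mean in the same array. The mean log2 level of the 13 listed markers with a probe set was 6.69, 7.43 and 6.83 in KO and 6.57, 6.85, 6.87 and 6.81 in WT, and their summed linear level ranged from 4406 to 7412 in KO and from 3999 to 6475 in WT. KO replicate 2 was the highest array for 7 of the 13, and a WT array was the highest for the other 6. Ceacam1, 1 of those 6 and the largest part of the linear sum, read 12.10 in WT replicate 3 and 11.95 in KO replicate 2. Of the 10 markers tested, 7 had a positive difference, 1 of them at an unadjusted p under 0.05, and 0 passed after adjustment. Krt20, a keratin of mature surface cells chosen here after its values were seen, read 6.06, 8.36 and 6.65 in KO and 5.98, 7.00, 6.31 and 6.12 in WT. Slc26a3, the chloride exchanger of the colon surface, also chosen after its values were seen, read 5.19, 7.14 and 4.86 in KO and 4.81, 5.00, 4.92 and 5.23 in WT.

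The mean of the fibroblast markers was also highest on that array, at 6.63 against 6.60 in WT replicate 3 and 6.16 to 6.25 on the other arrays. WT replicate 3, with a fibroblast mean near that of KO replicate 2, had Hpgd at 5.23 on 1419906_PM_at. This was the highest Hpgd level of the WT arrays and lay below the 5.75 of KO replicate 2. The mean of the 12 listed epithelial markers was highest on KO replicate 2 as well, at 10.58 against 10.25 to 10.53 on the other arrays. The part of any of these cell types in the levels of Hpgd and Slco2a1 was not tested.

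**Figure D3:**
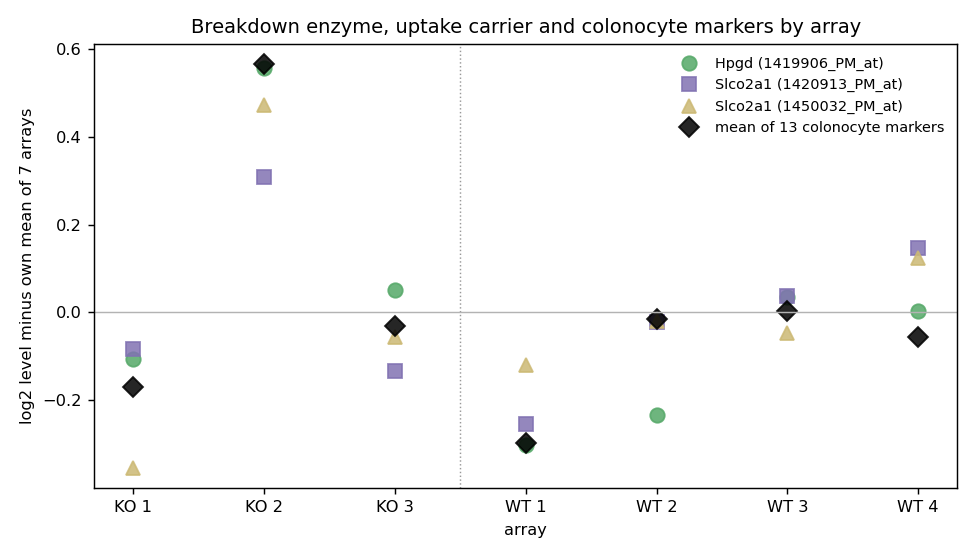
Log2 level of Hpgd, of both brighter Slco2a1 probe sets and of the mean of 13 colonocyte markers on each array, minus the mean of the 7 arrays (y axis), with KO arrays left of WT arrays (x axis). All 4 series are highest in KO replicate 2, where Hpgd read 5.75 and the marker mean 7.43.

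Among the receptors, Ptger4, the EP4 receptor that raises cyclic AMP and is a prostaglandin E2 receptor of the colon epithelium, had the largest difference of the whole set. On 1424208_PM_at it read 6.91, 6.89 and 7.01 in KO and 6.60, 6.90, 6.57 and 6.56 in WT. All KO arrays lay above 3 of the 4 WT arrays, and WT replicate 2 stood between KO replicates 1 and 2. The means were 6.94 (SD 0.07, 3 arrays) in KO and 6.66 (SD 0.16, 4 arrays) in WT, and the fitted difference was 0.30 (SE 0.10), or 1.23-fold. It did not pass over all probe sets (limma, unadjusted p = 0.0209, adjusted p = 0.508) or in the gene-level fit (limma, unadjusted p = 0.0177, adjusted p = 0.414). In the gene-level fit 1 of the 5 members tested had an unadjusted p under 0.05, against 11.4% of all 12822 genes. The second probe set of Ptger4, 1421073_PM_a_at, lay between 4.14 and 4.23 in KO and between 4.14 and 4.20 in WT. Its difference was 0.02 (SE 0.04), so the 2 probe sets did not give the same difference. All its values were under the filter level of 5.28, where a low level cannot be told from none. It therefore says little about the difference on the brighter probe set.

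The difference of Ptger4 was positive in all 18 alternative fits, from 0.15 to 0.39, and passed the threshold in 1 of them. The fits share the same arrays, so the common sign is no independent support. Within scan batch 1, where KO is 1 array, it was 0.16, and within scan batch 2 it was 0.39. On the 5 arrays without Y-linked signal, which leave out WT replicate 2 and KO replicate 3, it was 0.32 (limma, adjusted p = 0.406), and without WT replicate 2 alone it was 0.36 (limma, adjusted p = 0.114). With a weight fitted to each array it was 0.34 (limma, adjusted p = 0.0358), in a fit that called 10.7% of all genes, with 7.62% of all genes higher in KO, and 1 of 5 members. That fit gave KO replicate 1 the lowest weight, 0.297, and WT replicate 2 the next, 0.442.

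For Gapdh the 3' control probe set minus the 5' one on the log2 scale, a measure tied to RNA quality and amplification, was -0.154, -0.213 and -0.239 in KO and -0.131, -0.209, -0.121 and -0.121 in WT. The 4 arrays with the lowest values, the KO arrays and WT replicate 2, were the 4 arrays with the highest Ptger4. The same measure for actin was -0.301, -0.515 and -0.446 in KO and -0.485, -0.429, -0.497 and -0.448 in WT, and did not separate those 4 arrays from the rest. With the Gapdh difference as a further covariate, Ptger4 differed by 0.15 (SE 0.09, limma, adjusted p = 0.764). On this measure every KO array lay below every WT array but WT replicate 2. The covariate and the genotype can therefore hardly be told apart in this fit. The part of RNA quality or amplification in the level of Ptger4 was not tested. Leukocyte markers, listed because leukocytes also express Ptger4, gave a median of -0.01 over the 13 genes tested, and their summed linear level ranged from 6556 to 7191 in KO and from 4473 to 6269 in WT. Lyz2, listed as a lysozyme of myeloid cells, was named after its values were seen. It read 12.39, 12.53 and 12.42 in KO and 11.63, 12.30, 12.26 and 11.95 in WT. Its KO arrays were thus all above its WT arrays. The probe set carries the suffix x_at, and whether it reads Lyz2 alone was not tested. Whether its signal came from myeloid cells was not tested either. Lyz2 made up most of the leukocyte sum. Without Lyz2, a summary added after seeing the data, the other 19 markers summed to 1182 to 1365 in KO. In WT they summed to 1236 to 1326, and the groups overlapped. The part of leukocytes in the level of Ptger4 was not tested.

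**Figure D4:**
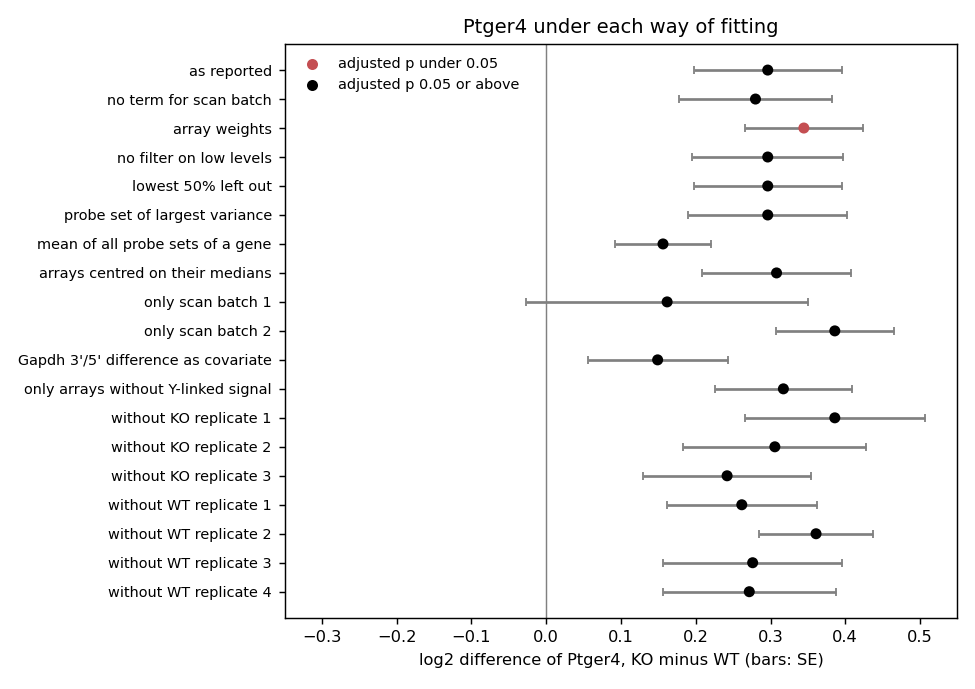
Log2 difference of Ptger4, KO minus WT (x axis), as reported and in the 18 alternative fits, with bars of 1 SE. All values are above 0, from 0.15 to 0.39, and the fit with array weights is the 1 with an adjusted p under 0.05. The fits share the same arrays and are not independent.

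Ptger2, the EP2 receptor that also raises cyclic AMP, read 4.72, 4.43 and 4.70 in KO and 4.68, 4.53, 4.68 and 4.68 in WT on its 1 probe set. KO replicate 2 and WT replicate 2 were the low arrays, 1 in each group, and the difference was -0.02 (SE 0.08). Ptger3, the EP3 receptor that mostly lowers cyclic AMP, read 4.96, 5.09 and 4.82 in KO and 4.96, 5.15, 4.90 and 5.13 in WT on 1425251_PM_at, with a difference of -0.07 (SE 0.09). Its other probe set, 1450344_PM_a_at, lay between 4.00 and 4.04 in KO and between 3.97 and 4.16 in WT, with the same difference of -0.07 (SE 0.04). Both genes were below the level filter, as were Ptgs2 and Hpgd, which leaves 5 of the 9 genes in the gene-level fit. The 95% confidence interval of Ptger2 ran from -0.21 to 0.16 and that of Ptger3 on 1425251_PM_at from -0.28 to 0.14.

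The tested genes whose levels over the 7 arrays lay nearest to a member, each centred on its own mean, were named for 3 members. Nearest to Ptgs2 were Tff2, Ift52 and Smad3, with root mean square differences of 0.0142 to 0.0217, and all 3 were highest in KO replicate 1. Nearest to Hpgd were Spindoc, Lrrc66 and Gcnt1, with 0.0808 to 0.0942, and all 3 were highest in KO replicate 2. Nearest to Ptger4, a choice made after its values were seen, were Casc3, Exoc2 and F11r, with 0.0299 to 0.0360, and in all 3 the KO arrays and WT replicate 2 were the 4 highest. The nearest of 12822 genes over 7 arrays are close by selection, so these names are a description.

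Around the set, the other genes of the pathway were described as 6 lists, in which 0 genes passed after adjustment. Of all tested genes 43.9% were on the positive side, the median difference being -0.02, and at an unadjusted p under 0.05 there were 7.14% higher and 4.26% lower in KO. Of 15 tested genes that release arachidonic acid or hand it on, 7 had a positive difference (median -0.04), with 0 higher and 1 lower at that p. The 1 was Faah, an amide hydrolase that frees arachidonic acid from anandamide, with means of 9.79 (SD 0.09, 3 arrays) in KO and 9.99 (SD 0.11, 4 arrays) in WT, a difference of -0.21 (SE 0.08, limma, adjusted p = 0.414). Mgll, the monoacylglycerol lipase and another source of free arachidonic acid, differed by -0.16 (SE 0.08), the secreted phospholipase Pla2g2e by -0.17 (SE 0.08) and the lysosomal phospholipase Pla2g15 by 0.17 (SE 0.09).

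Of 16 tested genes of other prostanoids, export and further breakdown, 7 had a positive difference (median -0.03), with 0 higher and 1 lower at the same p. Ptgfrn, a membrane protein that binds the prostaglandin F receptor, differed by -0.45 (SE 0.15, limma, adjusted p = 0.414). It read 8.11, 9.05 and 9.05 in KO and 9.06, 8.86, 9.37 and 9.08 in WT, so KO replicate 1 alone lay below the WT range. Without that array, the only KO array of scan batch 1, the difference was -0.18, which is the difference within scan batch 2 alone. Abcc1, an export pump for lipid conjugates, differed by -0.20 (SE 0.09) without overlap, but 0.024 when its most variable probe set was taken instead. Ptgr2, a reductase that acts on the product of Hpgd, differed by 0.31 (SE 0.15), and by -0.091 within scan batch 1. Tbxa2r, the thromboxane receptor, differed by -0.13 (SE 0.07).

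Of 14 tested genes of the lipoxygenase and leukotriene branch, which draws on the same arachidonic acid, 5 had a positive difference (median -0.02), with 1 higher and 1 lower at that p. Ggt5, which turns leukotriene C4 into leukotriene D4, read 5.32, 5.41 and 5.47 in KO and 5.47, 5.47, 5.68 and 5.63 in WT, a difference of -0.19 (SE 0.05, limma, adjusted p = 0.388). The KO arrays were all below the WT arrays, by a margin under the printed decimals between KO replicate 3 and WT replicates 1 and 2. Mgst2, a microsomal transferase that can make leukotriene C4, read 8.69, 9.06 and 9.14 in KO and 8.47, 8.71, 8.66 and 8.11 in WT, a difference of 0.47 (SE 0.18, limma, adjusted p = 0.414), and the groups overlapped. Ltc4s, the leukotriene C4 synthase, differed by -0.13 (SE 0.06), and the epoxide hydrolase Ephx2 by -0.15 (SE 0.07). Tuft cells are an epithelial source of leukotrienes, and of 7 tested tuft markers 1 had a positive difference (median -0.05), with 0 at that p in either direction. The summed linear level of the 10 tuft markers with a probe set ranged from 2402 to 2984 in KO and from 2628 to 2919 in WT. Avil, at 10.88 to 11.25 in KO and 11.02 to 11.21 in WT, made up most of that sum, so it says little about the other markers. Of the 10, 7 passed the level filter, which kept 12822 of all 17097 genes.

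Downstream of the receptors, 17 of 32 tested genes of cyclic AMP signalling had a positive difference (median 0.0053), with 3 higher and 1 lower at an unadjusted p under 0.05. Atf1, a transcription factor of the CREB family, read 8.60, 8.54 and 8.64 in KO and 8.37, 8.48, 8.12 and 8.19 in WT. The KO arrays were all above the WT arrays, with WT replicate 2 the nearest, and the difference was 0.33 (SE 0.10, limma, adjusted p = 0.388). Gnai3, an inhibitory G protein subunit through which Ptger3 can signal, differed by 0.22 (SE 0.08), and Adcy8, an adenylyl cyclase that makes cyclic AMP, by 0.37 (SE 0.15), although Adcy8 was at -0.086 within scan batch 1. Arrb2, a beta-arrestin that uncouples receptors, differed by -0.25 (SE 0.07, limma, adjusted p = 0.394).

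Of 16 tested CREB-responsive genes, 6 had a positive difference (median -0.04), with 0 higher and 1 lower at that p. Fosb, an immediate early gene, read 9.10, 9.64 and 10.02 in KO and 10.25, 9.33, 10.06 and 10.39 in WT, a difference of -0.51 (SE 0.22, limma, adjusted p = 0.437). The groups overlapped, with KO replicate 1 and WT replicate 2 the lowest arrays. Id1, an inhibitor of basic helix-loop-helix factors, differed by 0.18 (SE 0.09) without overlap, the NF-kB inhibitor Tnfaip3 by 0.28 (SE 0.14) and the chemokine Cxcl1 by 0.17 (SE 0.11). Tnfaip3 was at -0.020 within scan batch 1.

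Of 15 tested RNA-binding proteins known to bind Ptgs2 mRNA or mRNAs of its AU-rich kind, 11 had a positive difference (median 0.06), with 2 higher and 0 lower at that p. Zfp36l2, which promotes decay of AU-rich mRNAs, read 8.41, 8.81 and 8.75 in KO and 7.91, 8.56, 8.13 and 7.70 in WT, a difference of 0.59 (SE 0.21, limma, adjusted p = 0.414). KO replicate 1 lay below WT replicate 2, so the groups overlapped. Hnrnpd, known as AUF1, read 10.03, 10.002 and 10.09 in KO and 9.91, 10.04, 9.61 and 9.56 in WT, a difference of 0.30 (SE 0.10, limma, adjusted p = 0.414). The related Zfp36l1 differed by 0.24 (SE 0.11) and the translational repressor Tia1 by 0.27 (SE 0.12), and Tia1 was at -0.051 within scan batch 1.

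**Figure D5:**
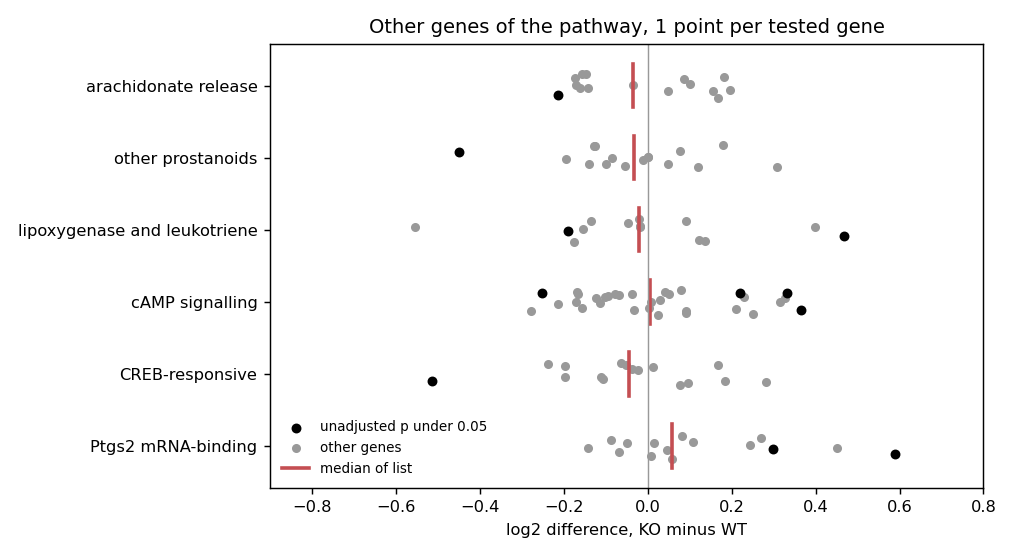
Log2 difference, KO minus WT (x axis), of each tested gene in the 6 pathway lists (rows), with genes at an unadjusted p under 0.05 in black and the list median as a red bar. The medians lie between -0.04 and 0.06, and 0 genes passed after adjustment.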

How the data were processed

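The authors deposited log2 levels per probe set made with RMA, per the submitters' processing notes. The RMA version, filters and batch handling were not stated there. Replicates are numbered here in order of deposit. Of 45141 probe sets on the 7 arrays, 104 were controls. The platform annotation paired 28898 probe sets with 1 symbol, 551 with several and 15588 non-control sets with none. The number of arrays limits the precision.

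From these values the difference KO minus WT was fitted with lmFit and eBayes (limma 3.58.1 under R 4.3.3, trended prior), with a term for scan batch and 4 residual degrees of freedom. Tests were two-sided, and p was adjusted by Benjamini-Hochberg to a threshold of 0.05. Fits ran over all 45037 non-control probe sets, and over 12822 genes, each at its brightest probe set, after the lowest 25% by mean level were removed. Member differences are from the probe-set fit; those of other genes, and of Ptger4 and the other tested members in alternative fits, are from the gene-level fit. The 10 members, the pathway and marker lists and the rule for named genes (all members, Mex3a, in each pathway list the 4 tested genes of smallest p, and the 3 nearest patterns) were chosen with earlier results of these data known. Alternatives changed the batch term, array weights, filter, probe set choice, centring, covariates and arrays. The fit was tested on simulated data. Promoters came from RefSeq, build GRCm38.p6.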

Additional observations from a re-analysis of the deposited data

Results flagged for a closer look

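In each of the 18 member probe sets the 4 WT arrays were checked for an array far from the others, and 2 were found. The nominal rate of this rule is about 1 in 20 groups. Its share over all probe sets was not counted, so 2 of 18 is not read as an excess. In Ptger4 on 1424208_PM_at, WT replicate 2 stood at 6.90 against 6.56 to 6.60 on the other WT arrays, and its gap to the nearest was 0.872 of the range of the group. In Ptger2 on 1449310_PM_at, WT replicate 2 stood at 4.53 against 4.68 on the other WT arrays, a gap of 0.974 of the range. The same array is thus the one apart on both probe sets, high in Ptger4 and low in Ptger2. Ptger2 was below the level filter of 5.28, and WT replicates 3 and 4 shared exactly the same value on it. Little weight rests on its gap for that reason. WT replicate 2 is also the WT array with Y-linked signal and with the lowest Gapdh 3' to 5' difference of WT, -0.209. With the Gapdh difference as covariate the difference of Ptger2 was 0.059, and without the arrays with Y-linked signal it was -0.13, against -0.02 in the fit as reported; none of the 3 passed the threshold.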

How the results depend on the processing

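The count of 0 genes called (1462 genes at an unadjusted p under 0.05 in limma) held in 15 of 18 alternative fits. With array weights 1370 genes were called, and with 1 array left out the count ranged from 0 to 2, with 2 both without WT replicate 2 and without WT replicate 4. The count of 0 probe sets called (4231 at an unadjusted p under 0.05) ranged from 0 to 1 with 1 array left out, with 1 without WT replicate 4. The 1 member probe set without overlap became 12 on scan batch 1 alone, 10 on scan batch 2 alone and 4 without the arrays with Y-linked signal, and 1 to 3 with 1 array left out; of all probe sets 60.6%, 50.9% and 18.8% did not overlap in those 3 subsets, against 66.7%, 55.6% and 22.2% of the members. Some uncalled differences changed sign. On scan batch 1 alone, with its lone KO array taken to vary as WT does, Ptges was at 0.065, Ptges2 at -0.024, Ptges3 at -0.031, Ptger2 at 0.11, Ptgr2 at -0.091, Tbxa2r at 0.00068, Adcy8 at -0.086, Tnfaip3 at -0.020 and Tia1 at -0.051. On scan batch 2 alone Slco2a1 was at -0.0050. With the Gapdh difference as covariate Ptges2 was at -0.0038, Ptges3 at -0.029 and Ptger2 at 0.059. Without the arrays with Y-linked signal Ptges2 was at -0.0085 and Ptger3 at 0.044, which was at 0.041 with array weights. With the probe set of largest variance Ptges3 was at -0.0082, Slco2a1 at -0.012 and Abcc1 at 0.024. With 1 array left out Ptges2 ranged from -0.016 to 0.15, Ptges3 from -0.00049 to 0.049, Slco2a1 from -0.086 to 0.14 and Ptger2 from -0.11 to 0.067. A fit without KO replicate 1, the only KO array of scan batch 1, takes its difference from scan batch 2 alone. The cause of the changes of sign was not tested. Mex3a passed the threshold with array weights (adjusted p = 0.0269, limma) and without WT replicate 4 (adjusted p = 0.0455, limma). Ptger4, Ptgs2 and Hpgd kept a positive difference in every alternative run for them, all of which use these same arrays. With array weights 12 of the 24 named pathway genes passed the threshold, beside 1 of 5 tested members and 10.7% of all genes. The 24 were picked for the smallest p of their lists on these same arrays. Their share is raised by that choice and is no result about the pathway. With 1 array left out 0 of the 24 turned while 15 moved by over 1.5 times. With the Gapdh covariate 10 of the 24 were smaller by that factor. Taken as the mean of all probe sets of a gene, Faah was at -0.087, Mgll at -0.079, Pla2g15 at 0.046 and Abcc1 at -0.086. Ptgr2 was then at 0.14, Ggt5 at -0.094, Arrb2 at -0.094, Gnai3 at 0.15 and Tnfaip3 at 0.079. Hnrnpd was at 0.12, Zfp36l1 at 0.081 and Tia1 at 0.16. All of these were smaller than on the brightest probe set, and the other named pathway genes kept the same difference. The alternatives for the pathway genes were added after seeing the data. No paired analysis was possible because no number in the sample titles is shared by a KO and a WT array, and the replicate numbers used here only follow the order of deposit.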
